A study of Arabidopsis thaliana with 15 samples.

Results

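The 5 genes described here are MYB21 (AT3G27810), MYB24 (AT5G40350) and MYB108 (AT3G06490), which encode transcription factors of the R2R3-MYB class, and TPS11 (AT5G44630) and TPS21 (AT5G23960), which encode terpene synthases. They were picked by gene identifier from the 33323 genes of the deposited table, with results of the same libraries in view: MYB21 and MYB24 were chosen because they were low in ref6-3, so the values of the 5 genes in ref6-3 are given as a description without a test. RNA was sequenced from closed flower buds of Arabidopsis thaliana, Col0 background, from plants 5 weeks old grown in long days without treatment. The 15 libraries comprise 3 each of wild type (WT), 2 mutants of REF6 named ref6-3 and ref6C, a double mutant, elf6-3ref6C, in which ref6C is combined with elf6-3, and a triple mutant, elf6-3ref6Cjmj13G, which adds jmj13G to both. REF6, ELF6 and JMJ13 are JmjC-domain demethylases that remove the repressive methyl mark from lysine 27 of histone H3. The labels say neither whether the libraries of a genotype came from separate plants nor what kind of lesion each allele is, and p-values cover no more than library-to-library spread, which could be technical.

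MYB21 and MYB24 are closely related factors of MYB subgroup 19 that promote filament elongation, anther opening and petal growth late in flower development. They act downstream of the auxin response factors ARF6 and ARF8 and of jasmonate, and JAZ repressor proteins bind them. MYB108 belongs to MYB subgroup 20 and promotes anther maturation and opening in the jasmonate pathway together with MYB24. TPS11 and TPS21 make most of the sesquiterpenes that Arabidopsis flowers give off: RefSeq's gene notes place TPS21 activity mainly in the stigma and TPS11 activity in the nectaries, and the bHLH factor MYC2 activates both genes. Whole buds hold all of these tissues, so the organ in which a transcript was made was not measured, and fewer cells of a type cannot be told apart from less RNA per cell.

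The 3 MYB genes were compared in the bases just before their annotated starts, because they respond to the same hormone. The sequences below are the 250 bases upstream of each start on the gene's own strand, 5′ to 3′, from RefSeq's TAIR10.1 assembly, at chr3:10305599-10305848 (plus strand) for MYB21, chr5:16141135-16141384 (minus strand) for MYB24 and chr3:2003143-2003392 (plus strand) for MYB108. Capitals mark CACATG or, read on the other strand, CATGTG, a variant of the G-box to which MYC-type bHLH factors can bind.
MYB21: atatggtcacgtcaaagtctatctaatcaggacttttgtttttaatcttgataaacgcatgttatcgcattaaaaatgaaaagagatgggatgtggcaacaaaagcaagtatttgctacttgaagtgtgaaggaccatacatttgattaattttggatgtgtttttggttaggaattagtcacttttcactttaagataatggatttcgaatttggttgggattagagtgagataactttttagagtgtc
MYB24: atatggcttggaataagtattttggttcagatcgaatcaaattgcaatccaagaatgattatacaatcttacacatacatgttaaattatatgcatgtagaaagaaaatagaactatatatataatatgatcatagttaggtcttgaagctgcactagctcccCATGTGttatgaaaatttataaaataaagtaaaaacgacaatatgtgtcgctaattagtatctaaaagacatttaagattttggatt
MYB108: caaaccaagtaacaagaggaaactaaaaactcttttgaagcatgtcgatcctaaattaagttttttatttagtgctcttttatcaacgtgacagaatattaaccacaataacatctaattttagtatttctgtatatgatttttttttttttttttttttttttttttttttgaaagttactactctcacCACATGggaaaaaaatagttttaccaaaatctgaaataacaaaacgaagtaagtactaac
The variant began at position -87 in MYB24 and at position -60 in MYB108, counted back from the start, and did not occur in the window of MYB21, TPS11 or TPS21. It lay in 11.1% of the 27443 windows of the same length before protein-coding genes, searched on both strands. The G-box itself, CACGTG, occurred in none of the 5 windows and in 6.49% of all windows. The motif bound by the zinc fingers of REF6, searched as CTCTGTTT, CTCTGTTC, CTCTGCTT and CTCTGCTC on both strands, was in none of the 5 windows and in 5.77% of all windows. Most windows of this length lack it, so nothing is read from its absence. The first 1000 bases after each start held it in none of the 5 genes and in 36.7% of 27444 protein-coding genes.

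In the RefSeq TAIR10.1 annotation MYB21 lies on the plus strand at chr3:10305849-10310492, MYB24 on the minus strand at chr5:16138544-16141134, MYB108 on the plus strand at chr3:2003393-2006727, TPS11 on the plus strand at chr5:18002996-18005849 and TPS21 on the plus strand at chr5:8092901-8095341. Reads from these genes were nearly all placeable: 99.8% of the 31-base words of MYB21 exons, 99.5% of those of MYB24 and 100% of those of the other 3 genes occurred once in the genome. MYB21 and MYB24 each share their locus with a gene on the opposite strand, AT3G27809 within MYB21 and the noncoding AT5G40348 across the whole of MYB24. A second gene opposite MYB21, the noncoding AT3G05315, overlaps it by 203 bases and was not analysed here. The library kit keeps strand, but the sources used here do not give whether the counting did, so reads of overlapping genes may not be fully separated.

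Total counts per library lay between 26009591 and 34140165, and 22411 genes passed the filter on low counts, the 5 genes among them. The demethylase genes checked the labels: REF6 stood at 69.4 CPM (counts scaled to library size, TMM-normalized) in WT and at 32.9 to 36.9 in the 4 mutants, ELF6 went from 61.3 in WT to 2.53 in the double and 8.67 in the triple mutant, and JMJ13 from 24.8 in WT to 9.04 in the triple mutant. REF6 was at 32.9 CPM in ref6-3 and 36.3 CPM in ref6C, so this check did not tell these 2 labels apart. The library ref6C replicate 3 stood apart, with counts in 29547 genes against 25055 to 25712 in the other 14 libraries. The file headers say that the authors left it out of their statistics, but it was kept here. Fold changes and calls were also fitted without it, whereas group means, marker sums, correlations and FPKM values were not recomputed. A gene was called at an adjusted p below 0.05 in edgeR's quasi-likelihood test over all 22411 genes. The spread between libraries was small (biological coefficient of variation 2.51%), so that changes of a few percent pass this test. Changes that small can also separate the libraries of 2 genotypes. The share of all tested genes with separate ranges is not given here, so non-overlap of libraries is a description only.

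MYB21 and MYB24 transcripts were highest in WT, intermediate in ref6C, lower in the double mutant and close to 0 in both the triple mutant and ref6-3. MYB21 measured 11.5, 11.5 and 12.5 CPM in the 3 WT libraries. It measured 5.01, 4.02 and 4.78 CPM in ref6C and 1.56, 1.86 and 1.94 CPM in elf6-3ref6C. It measured 0.196, 0.293 and 0.25 CPM in the triple mutant and 0.112, 0.345 and 0 CPM in ref6-3. The libraries of WT, ref6C, elf6-3ref6C and the triple mutant did not overlap, whereas the triple mutant's values lay inside the range of ref6-3. In reads, WT held 1077 counts of MYB21 over its 3 libraries, against 398 in ref6C, 153 in elf6-3ref6C, 22 in the triple mutant and 13 in ref6-3.

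MYB24 followed the same order. It measured 5.46, 5.23 and 5.81 CPM in WT. It measured 1.46, 1.76 and 1.52 CPM in ref6C and 0.546, 0.966 and 0.525 CPM in elf6-3ref6C. In the triple mutant it measured 0.0327, 0.183 and 0.125 CPM, which is 1, 5 and 4 reads, and in ref6-3 0, 0.103 and 0.0764 CPM, which is 0, 3 and 2 reads. Again WT, ref6C, the double and the triple mutant formed separate ranges, and those of the triple mutant and ref6-3 overlapped. As a share of the WT mean, MYB21 stood at 39.0% in ref6C, 15.1% in elf6-3ref6C, 2.09% in the triple mutant and 1.29% in ref6-3, and MYB24 at 28.7, 12.3, 2.07 and 1.09% in the same genotypes.

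**Figure D1:**
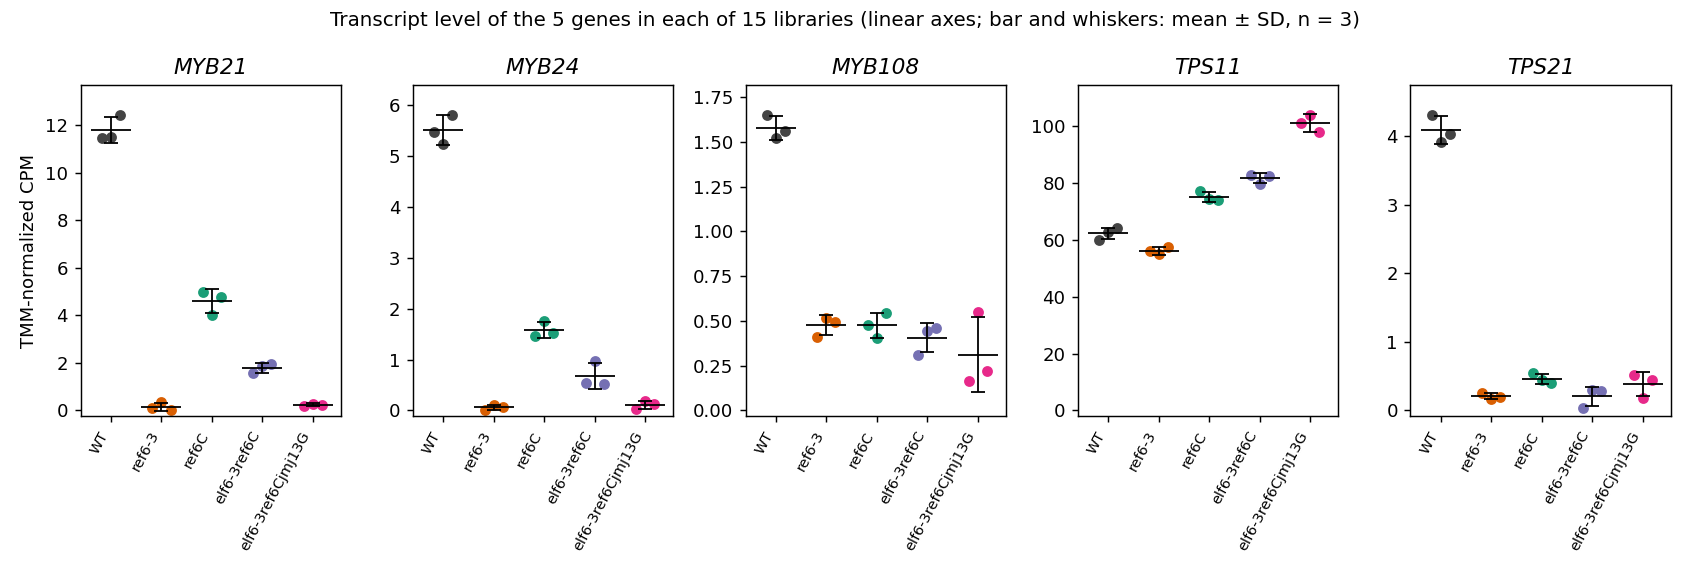
TMM-normalized CPM (vertical, linear axes that differ between panels) of MYB21, MYB24, MYB108, TPS11 and TPS21 in each of the 15 libraries, by genotype; points are libraries, bars and whiskers the mean and SD of 3. MYB21 and MYB24 step down from WT through ref6C and elf6-3ref6C to the triple mutant, MYB108 and TPS21 are low in all 4 mutants, and TPS11 is highest in the triple mutant.

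Each of these steps passed the test. In ref6C against WT, MYB21 fell 2.56-fold (log2 fold change -1.36 ± 0.12 SE, adjusted p = 9.6e-10) and MYB24 fell 3.47-fold (-1.79 ± 0.17, adjusted p = 1.73e-09). In this comparison 4 of the 5 genes were called lower, where 20.4% of all tested genes were, and 1 was called higher, where 18.4% were. Adding elf6-3 to ref6C lowered MYB21 by a further 2.55-fold (-1.35 ± 0.17, adjusted p = 6.76e-08) and MYB24 by 2.34-fold (-1.23 ± 0.24, adjusted p = 8.28e-05). Here 3 of the 5 genes were called lower, against 30.6% of all tested genes, and 1 was called higher, against 30.7%. Adding jmj13G to the double mutant lowered MYB21 by 7.23-fold (-2.85 ± 0.30, adjusted p = 3.4e-08) and MYB24 by 5.85-fold (-2.55 ± 0.42, adjusted p = 4.96e-05). In that last step 2 of the 5 were called lower against 11.4% of all tested genes, only 0.879% of all genes were called at least 2-fold lower, and MYB21 and MYB24 ranked 21st and 32nd from the lowest fold change of 22411. The comparison of ref6C with WT uses the same WT libraries as ref6-3 against WT, on which MYB21 and MYB24 were chosen. The steps from ref6C to the double and from the double to the triple mutant use neither WT nor ref6-3 libraries.

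Against WT, MYB21 was 6.55-fold lower in elf6-3ref6C (-2.71 ± 0.15, adjusted p = 2.92e-15) and 47.4-fold lower in the triple mutant (-5.57 ± 0.21, adjusted p = 1.34e-18). MYB24 was 8.12-fold lower in the double mutant (-3.02 ± 0.20, adjusted p = 2.31e-13) and 47.5-fold lower in the triple mutant (-5.57 ± 0.28, adjusted p = 5.71e-16). In both comparisons 4 of the 5 genes were called lower and 1 higher. Of all tested genes, 34.8% were called lower and 33.7% higher in the double mutant, and 34.4% lower and 32% higher in the triple mutant. These comparisons use the same WT libraries as ref6-3 against WT.

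In ref6-3 against WT, the contrast on which the genes were chosen, MYB21 was lower by 6.18 ± 0.23 and MYB24 by 6.40 ± 0.32 on the log2 scale, where 18.5% of all tested genes were called lower; nothing is read from this. They were the lowest of the 5 genes but not of the transcriptome: MYB24 ranked 35th and MYB21 39th from the lowest fold change of 22411. The genes around them in that ranking were CHX27 at -6.57, AT1G11765 at -6.62, AT5G26692 at -6.36, DAZ3 at -6.25, AT3G10460 at -6.20, GH9A4 at -6.11 and AT1G50810 at -6.09, all with a lower mean level over the libraries than MYB24 or MYB21. With 13 and 5 reads left in ref6-3, the size of these values hung on single libraries: the log2 fold change of MYB21 was -7.60 without ref6-3 replicate 2, and that of MYB24 was -5.86 without replicate 1 and -7.03 without replicate 2. In the authors' deposited table the log2 fold changes in ref6-3, with the sign turned to mutant over WT, were -4.34 for MYB21 and -3.64 for MYB24. All 5 genes had the same direction in the authors' deposited table as here in each of the 4 mutants.

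The 2 alleles of REF6 differed in the MYB21 and MYB24 level left: ref6C stood 4.82 ± 0.28 above ref6-3 for MYB21 and 4.60 ± 0.41 above it for MYB24 on the log2 scale, a description only, since ref6-3 was the genotype of choice. Without ref6-3 replicate 2 these differences were 6.24 and 5.23, and without ref6-3 replicate 1 that of MYB24 was 4.06. REF6 mRNA itself was at 32.9 CPM in ref6-3 and 36.3 CPM in ref6C.

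The genes on the opposite strand moved with MYB21 and MYB24. AT3G27809 measured 1.32 CPM in WT, 0.935 in ref6C, 0.277 in elf6-3ref6C, 0.0421 in the triple mutant and 0.101 in ref6-3. It fell in elf6-3ref6C against ref6C (log2 fold change -1.71 ± 0.39, adjusted p = 0.000467) and in the triple against the double mutant (-2.55 ± 0.75, adjusted p = 0.0149), and was not called in ref6C against WT (-0.49 ± 0.29, adjusted p = 0.184). AT5G40348 measured 0.932 CPM in WT, 0.233 in ref6C, 0.163 in elf6-3ref6C and 0.0245 in the triple mutant, and had no read in ref6-3, at least 25.4-fold lower than WT with 3 counts over the 3 libraries as the floor. AT5G40348 passed the filter on low counts only through WT, where it was high. Its log2 difference of -1.99 ± 0.35 in ref6C against WT is therefore a description without a test. It fell in the triple against the double mutant (-2.67 ± 0.83, adjusted p = 0.0228), but was not called in elf6-3ref6C against ref6C (-0.48 ± 0.51, adjusted p = 0.43). Of the next protein-coding genes, 2 could be tested: MDAR4, beside MYB21, was at most 0.20 lower on the log2 scale in any mutant against WT, and AT5G40340, beside MYB24, was 0.10 lower in ref6C and 0.13 higher in elf6-3ref6C. MYB115, on the other side of MYB24, was too low to test, with 5 reads in WT, 7 in ref6C and none in the other genotypes. MYB57, the remaining gene of subgroup 19, was too low to test, at 0.141 CPM in WT and 0.0208 to 0.0864 CPM in the mutants.

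MYB108 was at about the same low level in all 4 mutants. It measured 1.65, 1.52 and 1.56 CPM in WT. It measured 0.412, 0.517 and 0.496 CPM in ref6-3 and 0.477, 0.405 and 0.543 CPM in ref6C. It measured 0.312, 0.446 and 0.463 CPM in elf6-3ref6C and 0.164, 0.55 and 0.219 CPM in the triple mutant. Every WT library was above every mutant library, and the mutants overlapped one another. MYB108 fell 3.31-fold in ref6C against WT (-1.73 ± 0.25, adjusted p = 3.91e-06), 3.8-fold in elf6-3ref6C (-1.93 ± 0.26, adjusted p = 3.4e-07) and 5.17-fold in the triple mutant (-2.37 ± 0.28, adjusted p = 2.44e-08), and was lower by 1.72 ± 0.26 in ref6-3. Without triple mutant replicate 2, the highest of its 3 libraries, the log2 fold change in the triple mutant was -3.01. No further change was detectable between the mutants. The log2 difference was -0.20 between elf6-3ref6C and ref6C (95% interval -0.86 to 0.45, adjusted p = 0.623) and -0.44 between the triple and the double mutant (95% interval -1.16 to 0.27, adjusted p = 0.451), so that a further 2-fold fall lies inside the second interval; without triple mutant replicate 2 that difference was -1.08 (adjusted p = 0.0808). With 27 to 41 reads per mutant genotype, smaller steps were beyond this depth. ref6C and ref6-3 had MYB108 means of 0.475 CPM each, with a log2 difference of -0.01 ± 0.33 that is a description only.

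Among the 5 other genes of subgroup 20, none was called in ref6-3 against WT, where 18.5% of all tested genes were called lower and 16.2% higher. In the other mutants the fall of MYB108 was not shared by all relatives. MYB62, which encodes a factor of gibberellin and phosphate responses, kept its level in ref6C (1.75 ± 0.29 CPM against 1.63 ± 0.077 in WT, n = 3 each) and fell to 0.813 ± 0.14 in elf6-3ref6C (-1.02 ± 0.22, adjusted p = 0.000166) and 0.755 ± 0.27 in the triple mutant (-1.09 ± 0.22, adjusted p = 7.66e-05). MYB2, a drought and abscisic acid response gene, measured 0.142 CPM in WT, 0.381 in ref6C, 0.412 in elf6-3ref6C and 0.442 in the triple mutant. It passed the filter on low counts only through mutants in which it was high, so these values are a description without a test. MYB78, MYB112 and MYB116 were not called against WT in any mutant. Their depth was low, so a fall could be missed: MYB112 had 24 reads in WT and 11 in ref6-3, MYB116 41 and 25, and MYB78 41 and 38.

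TPS21 was close to absent in every mutant. It measured 4.32, 3.92 and 4.03 CPM in WT. It measured 0.262, 0.172 and 0.191 CPM in ref6-3 and 0.545, 0.439 and 0.398 CPM in ref6C. It measured 0.039, 0.297 and 0.278 CPM in elf6-3ref6C and 0.524, 0.183 and 0.437 CPM in the triple mutant. The lowest WT library was far above the highest mutant library, and only 17 to 40 reads per mutant genotype remained of the 373 in WT. TPS21 fell 8.77-fold in ref6C (-3.13 ± 0.23, adjusted p = 1.79e-11), 19-fold in elf6-3ref6C (-4.24 ± 0.27, adjusted p = 1.53e-13) and 10.4-fold in the triple mutant (-3.38 ± 0.24, adjusted p = 1.31e-12); in ref6-3 it was lower by 4.27 ± 0.28. In ref6C it stood at 11.3% of its WT mean, where MYB21 stood at 39.0%. The step from ref6C to elf6-3ref6C was called (-1.11 ± 0.41, adjusted p = 0.0215) but not without elf6-3ref6C replicate 1 (-0.68, adjusted p = 0.137), a library with a single read of the gene, nor without ref6C replicate 1 (-0.97, adjusted p = 0.0785). The triple mutant did not differ detectably from the double (0.86, 95% interval 0.03 to 1.70, adjusted p = 0.166), and their libraries overlapped. Beside TPS21, AT5G23970, 915 bases away on the same strand, was called lower in each mutant against WT. Its log2 fold change was -0.29 ± 0.05 in ref6-3 and -0.44 ± 0.05 in ref6C. It was -1.31 ± 0.06 in elf6-3ref6C and -0.89 ± 0.06 in the triple mutant. Of all tested genes 18.5, 20.4, 34.8 and 34.4% were called lower there. AT5G23955, on the other side, was not called against WT in any mutant.

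TPS11 went the other way. It measured 60.0, 62.5 and 64.0 CPM in WT. It measured 76.9, 74.2 and 73.8 CPM in ref6C, 82.7, 79.5 and 82.4 CPM in elf6-3ref6C, and 101, 104 and 97.9 CPM in the triple mutant. In ref6-3 it measured 55.9, 54.9 and 57.5 CPM. The ranges of the 5 genotypes were separate, in the order ref6-3, WT, ref6C, double and triple mutant, which is a description only. TPS11 rose 1.21-fold in ref6C against WT (0.27 ± 0.03, adjusted p = 1.8e-07), 1.31-fold in elf6-3ref6C (0.39 ± 0.03, adjusted p = 3.52e-11) and 1.62-fold in the triple mutant (0.70 ± 0.03, adjusted p = 8.51e-17). The added step was 1.09-fold from ref6C to the double mutant (0.12 ± 0.03, adjusted p = 0.00203) and 1.24-fold from the double to the triple (0.31 ± 0.03, adjusted p = 1.8e-08), where 8.58% of all tested genes were called higher. These rises rest on 5681 reads in WT and 9056 in the triple mutant. In ref6-3 TPS11 was lower by 0.15 ± 0.03, and ref6C stood 0.42 ± 0.03 above ref6-3, both given as a description.

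**Figure D2:**
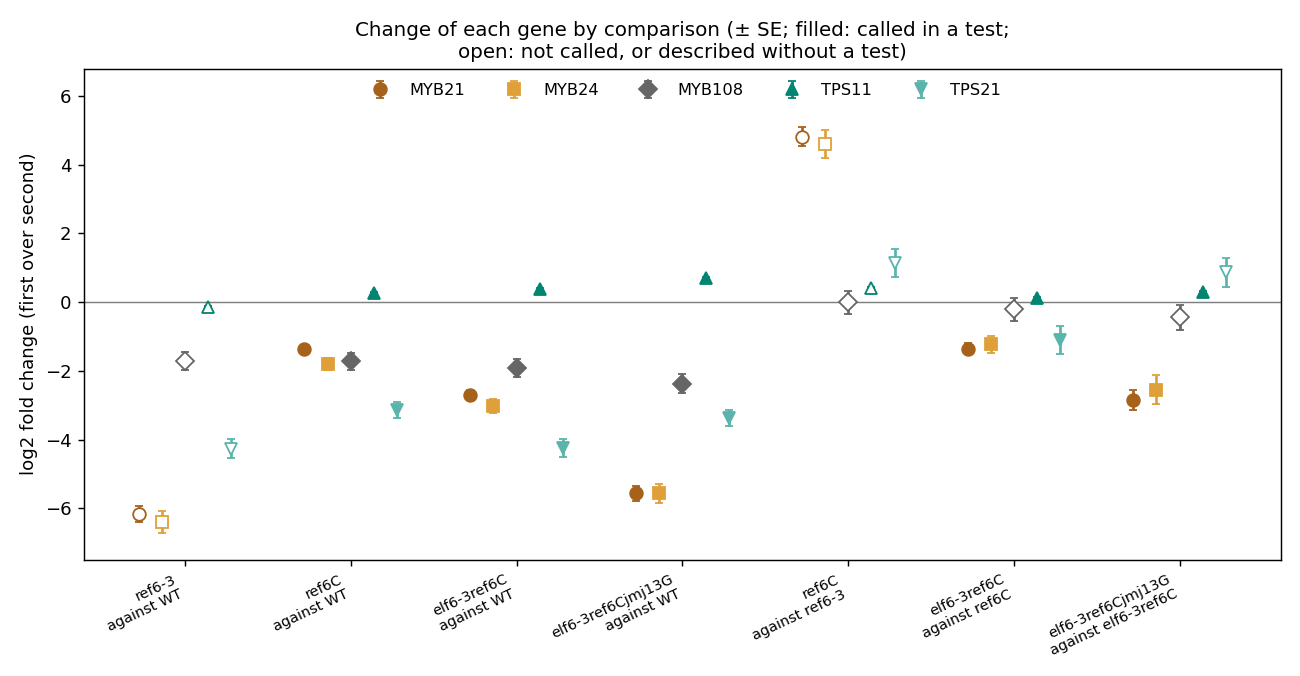
Log2 fold change with its SE (vertical) of the 5 genes in each of 7 comparisons (horizontal, first genotype over second); filled symbols passed edgeR's test, open symbols did not or, in ref6-3 against WT and ref6C against ref6-3, were not tested. TPS11 lies above 0 in every tested comparison, MYB21 and MYB24 below 0 in every tested comparison, and MYB108 near 0 in the 2 steps between mutants.

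Per transcript length, TPS11 was the most abundant of the 5 genes in every genotype. The deposited FPKM values in WT were 38.6 ± 1.4 for TPS11, 11.9 ± 0.64 for MYB21, 6.04 ± 0.36 for MYB24, 2.39 ± 0.13 for TPS21 and 0.94 ± 0.04 for MYB108 (SD, n = 3), and neighbours in this order differed by more than those spreads. The order of MYB21 and MYB24 rests on the length used: by counts per kilobase of annotated exons MYB24 stood above MYB21 in each genotype, at 5.48 against 3.81 CPM per kilobase in WT, 1.57 against 1.49 in ref6C and 0.676 against 0.577 in elf6-3ref6C. In the triple mutant TPS11 stood at 62.1 ± 2.1 FPKM and the other 4 genes at 0.127 to 0.247 FPKM, with overlapping spreads. In ref6C the FPKM order of WT held for TPS11, MYB21 and MYB24, at 46.2, 4.62 and 1.73 FPKM, while TPS21 at 0.27 ± 0.046 and MYB108 at 0.28 ± 0.04 FPKM did not differ beyond their spread. In elf6-3ref6C the FPKM order was TPS11 at 49.4, MYB21 at 1.77 and MYB24 at 0.733, followed by MYB108 at 0.237 ± 0.049 and TPS21 at 0.117 ± 0.084, whose spreads overlap. In ref6-3 TPS11 stood at 34.7 FPKM and the other 4 genes at 0.0633 to 0.28 FPKM. TPS11 was 3.23 times MYB21 in WT by FPKM but 7.44 times by counts per kilobase of annotated exons, because the FPKM values imply a length of 998 bases for MYB21 where the TAIR10.1 exons of its 2 transcripts cover 3097.

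The rise of TPS11 was compared with its genomic neighbours and with marker genes of the nectary. CYP706A3, next to TPS11 at a distance of 2545 bases, encodes a cytochrome P450 that oxidizes floral terpenes, and measured 197 CPM in WT and 207 to 227 CPM in the mutants. It was called higher in all 4 mutants by small amounts, 0.21 ± 0.03 in ref6-3 (adjusted p = 2.94e-07, where 16.2% of all tested genes were called higher), 0.08 ± 0.03 in ref6C (adjusted p = 0.0222) and 0.08 ± 0.03 in the triple mutant (adjusted p = 0.0128). The call in ref6C was lost without WT replicate 3 or ref6C replicate 3, and that in the triple mutant without its replicate 3. MCM6, 363 bases from TPS11 on its other side, was called higher in ref6-3 (0.10 ± 0.03, adjusted p = 0.0125). It rose by 0.45 ± 0.03 in elf6-3ref6C (adjusted p = 3.48e-13) and 0.35 ± 0.03 in the triple mutant (adjusted p = 9.71e-11). It was not called in ref6C (0.04 ± 0.03). MCM6 was lower by 0.11 ± 0.03 in the triple than in the double mutant. In ref6-3, the double and the triple mutant 16.2, 33.7 and 32% of all tested genes were called higher. The nectary markers, of which 2 of 3 were called lower in ref6-3 and ref6C and 3 of 3 in the double and triple mutants (18.5, 20.4, 34.8 and 34.4% of all tested genes), moved opposite to TPS11 in the last 3. Their summed level (CRC, SWEET9 and CWINV4, none of them at 0 in any genotype) was 90.9 to 95.7 CPM in WT, 65.5 to 66.2 in ref6C, 50.6 to 52.7 in the double mutant, 42.0 to 45.0 in the triple mutant and 75.1 to 76.1 in ref6-3. CWINV4, the cell wall invertase needed for nectar, fell in elf6-3ref6C to 14 ± 0.87 CPM from 52.8 ± 1.5 in WT (-1.92 ± 0.05, adjusted p = 2e-21). SWEET9, the nectar sugar exporter, was at 0.803 ± 0.39 CPM in WT and at 0.0125 to 0.0475 CPM in the mutants. It passed the filter on low counts only through WT, where it was high, so its part in the counts above is a description without a test. CRC, the regulator that sets up nectaries, was called lower in the triple mutant (-0.40 ± 0.04, adjusted p = 1.97e-10) and higher in ref6-3 (0.25 ± 0.03, adjusted p = 1.01e-06). The part of nectary tissue in the TPS11 values was not tested.

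The summed stigma and style markers (8 genes, none at 0) changed little beside the fall of TPS21: 90.6 to 94.9 CPM in WT, 93.7 to 99.4 in ref6C, 84.7 to 87.9 in the double mutant, 96.2 to 99.7 in the triple mutant and 81.1 to 83.8 in ref6-3. Their lowest mutant library stood at 88.0% of the WT mean, whereas TPS21 stood at 5.01 to 11.3% of its WT mean. Of these 8 genes, 1 to 4 were called higher and 1 or 2 lower in each mutant against WT, counts that changed by 1 when any of several libraries was left out, WT replicates 2 and 3 among them, where 16.2 to 33.7% of all tested genes were called higher and 18.5 to 34.8% lower. The strongest fall was that of AT3G12000, a gene related to the S-locus glycoproteins of the stigma, which measured 14.3 ± 0.29 CPM in WT, 4.98 ± 0.37 in ref6-3 (-1.53 ± 0.07, adjusted p = 3.57e-16) and 4.05 ± 0.18 in elf6-3ref6C (-1.83 ± 0.07, adjusted p = 2.65e-18), and stood at 15.5 ± 0.3 in ref6C. The part of stigma and style tissue in the TPS21 values was not tested.

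Other floral cell types moved with the MYB genes in some genotypes and not in others. The 13 mature pollen markers summed to 717 to 760 CPM in WT, 572 to 598 in ref6C, 183 to 189 in elf6-3ref6C, 250 to 257 in the triple mutant and 226 to 241 in ref6-3. The 15 tapetum markers summed to 2755 to 2883 CPM in WT and 2787 to 2835 in ref6-3, where MYB21 was close to 0. They summed to 1880 to 1982 in ref6C, 1570 to 1617 in elf6-3ref6C and 1612 to 1621 in the triple mutant, where MYB21 was also close to 0. The 5 petal markers summed to 475 to 493 CPM in WT, 486 to 496 in ref6C, 394 to 404 in the double mutant, 268 to 272 in the triple mutant and 421 to 433 in ref6-3, and 3 of them were called lower against WT in ref6-3, the double and the triple mutant and 1 in ref6C (18.5, 34.8, 34.4 and 20.4% of all tested genes). No marker of these lists was at 0 in any genotype. In ref6-3 against WT 11 of the 13 pollen markers and 3 of the 15 tapetum markers were called lower, and 3 tapetum markers were called higher (5 without WT replicate 2), beside 18.5% of all tested genes lower and 16.2% higher. In ref6C against WT 10 of 13 pollen and 15 of 15 tapetum markers were called lower, beside 20.4% of all tested genes. From the double to the triple mutant, where MYB21 and MYB24 fell again, 5 of the 13 pollen markers were called higher and 1 lower, beside 8.58 and 11.4% of all tested genes. The part of these cell types in the MYB values was not tested.

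**Figure D3:**
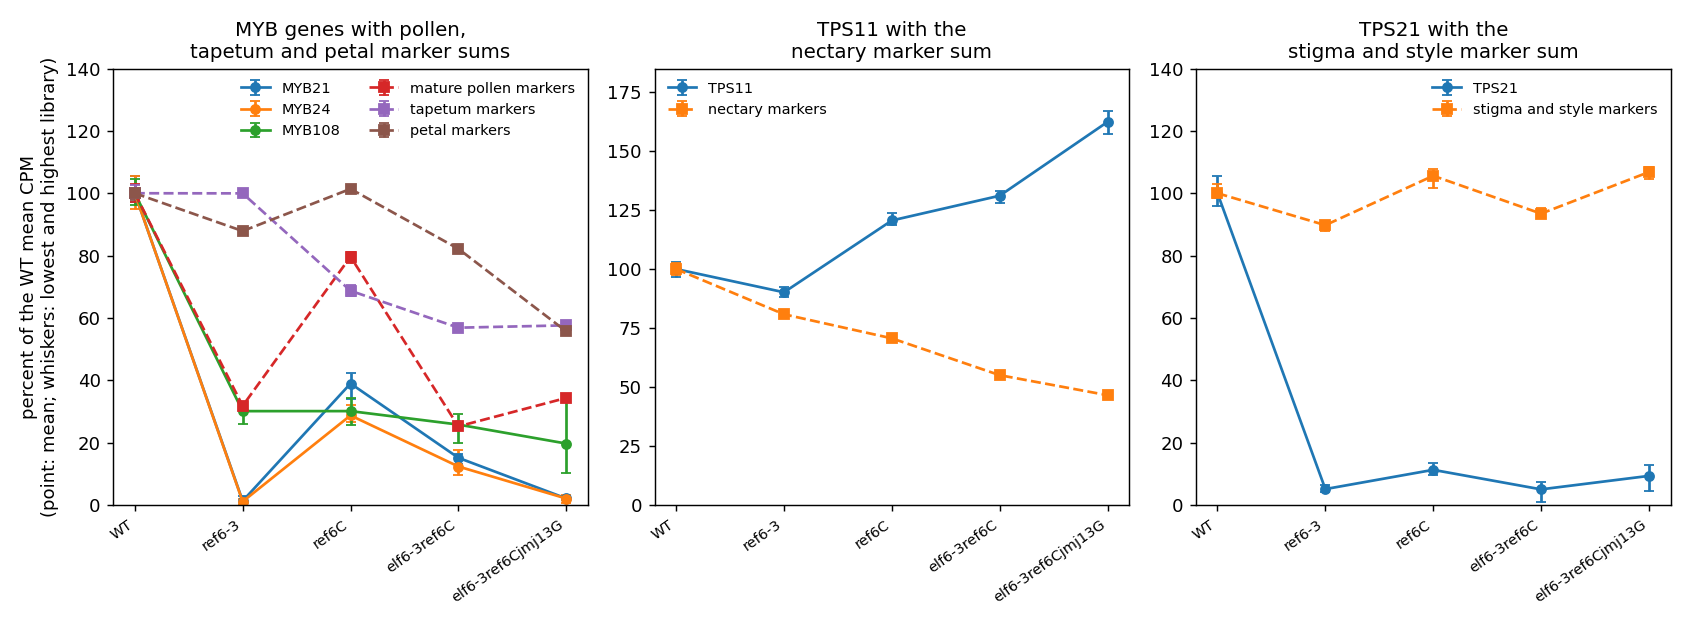
Mean level as a percent of the WT mean (vertical; whiskers, lowest and highest of 3 libraries) by genotype for the 3 MYB genes with the summed mature pollen, tapetum and petal markers, for TPS11 with the summed nectary markers, and for TPS21 with the summed stigma and style markers. In the triple mutant TPS11 is at 162% and the nectary markers at 46.5% of WT, while TPS21 is at 9.33% and the stigma and style markers at 107%.

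In the wider terpene synthase family, more genes were called lower than higher in each mutant. Apart from TPS11 and TPS21, 16 of its 29 listed genes could be tested. Of these, 8 were called lower in ref6-3, 6 in ref6C, 10 in the double mutant and 9 in the triple mutant, against 18.5, 20.4, 34.8 and 34.4% of all tested genes, and their median log2 fold changes were -0.30, -0.03, -0.88 and -0.83, beside medians within 0.01 of 0 over all tested genes. TPS14, a linalool synthase of flowers, differed between the REF6 alleles: it measured 13 ± 0.94 CPM in WT and 13.8 ± 0.85 in ref6C (0.09 ± 0.07, adjusted p = 0.347), but 1.63 ± 0.15 in ref6-3 (-2.98 ± 0.11, adjusted p = 2.06e-18), and it stood 3.07 ± 0.11 higher in ref6C than in ref6-3, where 17.2% of all tested genes were called higher (adjusted p = 1e-18). It then fell when elf6-3 was added to ref6C (-2.24 ± 0.09, adjusted p = 2.04e-17) and did not change detectably with jmj13G (0.14 ± 0.12, adjusted p = 0.466). TPS10, which makes linalool and other monoterpenes, was at 23.6 ± 1.5 CPM in WT, 17.6 ± 0.89 in ref6C and 6.26 ± 0.92 in elf6-3ref6C, and fell in the double mutant against ref6C (-1.48 ± 0.08, adjusted p = 3.22e-15). TPS03, an ocimene synthase gene, fell in all 4 mutants against WT, to 5.00 ± 0.66 CPM in elf6-3ref6C from 15.5 ± 0.72 in WT. TPS04, the geranyllinalool synthase gene, was not called in ref6C (0.24 ± 0.11, adjusted p = 0.0876) and fell in elf6-3ref6C (-1.87 ± 0.14, adjusted p = 6.71e-12) and the triple mutant (-2.19 ± 0.15, adjusted p = 5.31e-13). AT3G25810, a monoterpene synthase gene expressed in flowers, varied in WT (1.95 ± 0.88 CPM), was at 0.0125 to 0.107 CPM in the 3 other mutants and had no read in the triple mutant, at least 59.96-fold below WT with 3 counts over the 3 libraries as the floor. It passed the filter on low counts only through WT, where it was high, so its part in the counts above is a description without a test.

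The genes of the family called higher numbered 3 in ref6-3 (1 without WT replicate 2, WT replicate 3 or ref6-3 replicate 2), 1 in ref6C, 2 in the double mutant and 4 in the triple mutant, where 16.2, 18.4, 33.7 and 32% of all tested genes were. AT1G48820 was called higher in all 4 mutants, from 2.39 ± 0.23 CPM in WT to 4.68 ± 0.43 in ref6-3 (0.98 ± 0.12, adjusted p = 2.41e-07) and 3.91 ± 0.061 in the triple mutant (0.71 ± 0.12, adjusted p = 1.15e-05). AT1G70080, counted above in ref6-3, the double and the triple mutant, measured 0.70 ± 0.10 CPM in elf6-3ref6C and 0.0331 in WT. In ref6-3 it measured 0.131 ± 0.096 CPM and in the triple mutant 0.235 ± 0.042. It passed the filter on low counts only through elf6-3ref6C, where it was high, so these values are a description without a test.

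Of the tested genes that feed or modify the terpene products, besides TPS11 and TPS21, CYP76C1 was called at least 2-fold lower in each mutant against WT. Apart from CYP76C3, the other 6 moved by at most 0.29 on the log2 scale, the value of HMG2 in elf6-3ref6C (-0.29 ± 0.04, adjusted p = 1.63e-07). FPS1, a farnesyl diphosphate synthase gene, had means of 111 to 125 CPM. CYP76C1 and CYP76C3 encode P450 enzymes that oxidize linalool in flowers. CYP76C1 fell from 25.3 ± 0.53 CPM in WT to 6.82 ± 0.59 in ref6C (-1.89 ± 0.07, adjusted p = 1.94e-18) and to 7.52 to 9.79 CPM in the other mutants, all called. CYP76C3 was at 1.80 ± 0.088 CPM in WT, at 0.0121 to 0.0248 CPM in ref6C, the double and the triple mutant, and without a read in ref6-3, at least 49.3-fold lower with 3 counts over the 3 libraries as the floor. CYP76C3 passed the filter on low counts only through WT, where it was high, so its values are a description without a test. Like TPS21, CYP76C1 and CYP76C3 were low already in ref6C. Of the 8 tested genes of this list besides TPS11 and TPS21, 3 were called lower in ref6-3, 3 in ref6C, 6 in the double mutant and 7 in the triple mutant, against 18.5, 20.4, 34.8 and 34.4% of all tested genes, and 2, 2, 1 and 1 were called higher, against 16.2, 18.4, 33.7 and 32%. CYP706A3 was among those called higher in each, and CYP76C3 is counted among those lower in each.

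**Figure D4:**
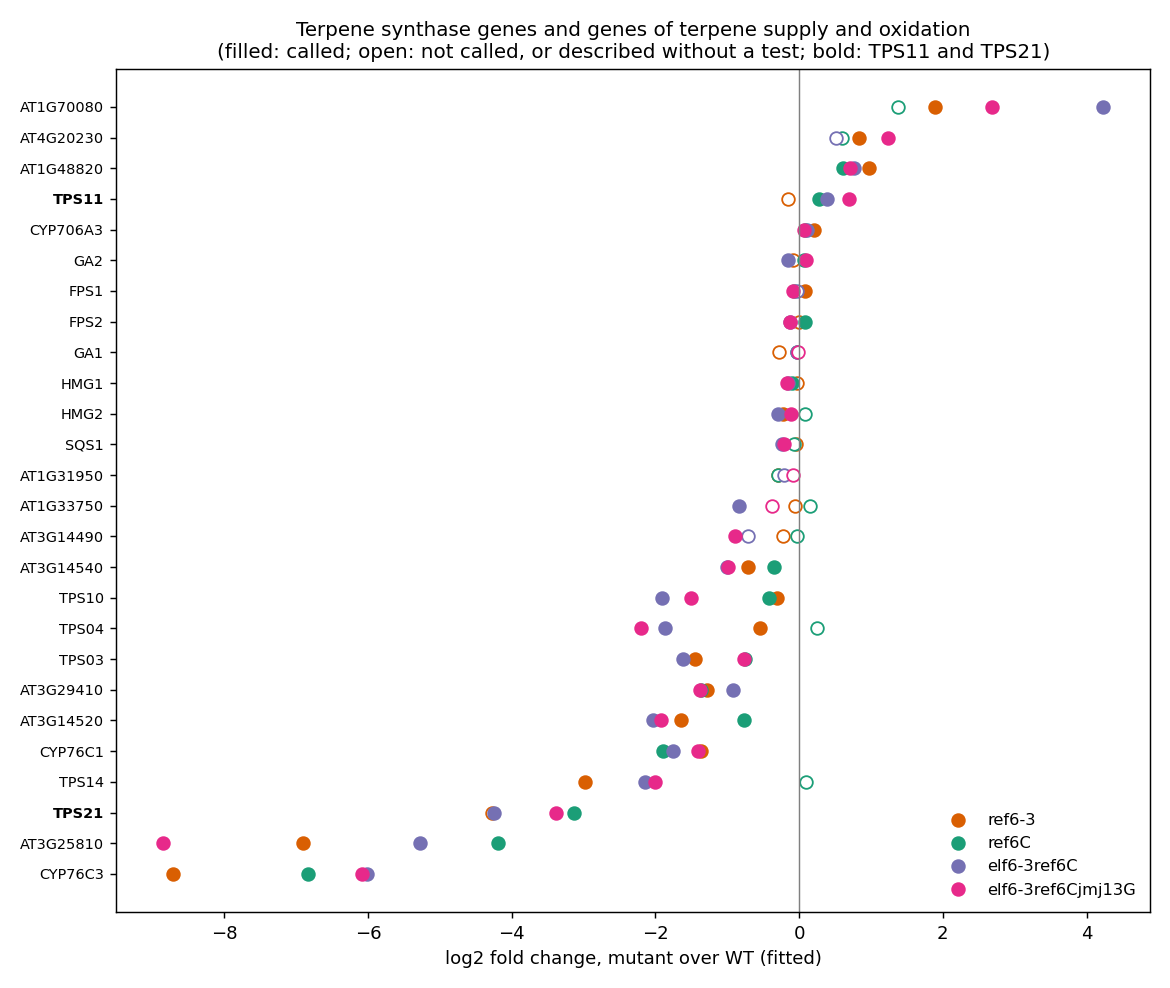
Fitted log2 fold change of each mutant over WT (horizontal) for the tested terpene synthase genes and genes of terpene supply and oxidation (vertical, ordered by the mean of the 4); filled points were called, open points were not or, for TPS11 and TPS21 in ref6-3, were not tested. Points of CYP76C3 in ref6-3 and AT3G25810 in the triple mutant come from genes with no read there, and their place depends on the fit; TPS14 is near 0 only in ref6C. Filled points of CYP76C3, AT3G25810 and AT1G70080 are a description, since these genes passed the filter on low counts only through a group where they were high.

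The genes that act before MYB21 and MYB24 changed by small amounts. ARF6 measured 343 ± 21 CPM in WT and 335 to 383 CPM in the mutants, and ARF8 233 ± 5.2 CPM in WT and 229 to 247 CPM in the mutants. ARF6 was not called in ref6C, the double or the triple mutant against WT, and ARF8 rose by 0.08 ± 0.03 in ref6C (adjusted p = 0.0135) and 0.06 ± 0.03 in the triple mutant (adjusted p = 0.0335). The DELLA growth repressor genes RGA, GAI, RGL1 and RGL2, whose proteins hold back these MYB genes through jasmonate, moved by at most 0.32 on the log2 scale against WT. Of the 7 genes of this list 2, 2, 3 and 1 were called lower in ref6-3, ref6C, the double and the triple mutant and 3, 4, 2 and 3 higher, the 2 becoming 1 without elf6-3ref6C replicate 3. The shares of all tested genes were 18.5, 20.4, 34.8 and 34.4% lower and 16.2, 18.4, 33.7 and 32% higher. The change of AG, the organ identity gene that switches on jasmonate synthesis in stamens, was the largest of them, at -0.39 ± 0.03 in elf6-3ref6C.

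Jasmonate synthesis genes were mostly lower in the double and triple mutants and split in ref6C. Of 13 tested genes, 7 were called lower in ref6-3, 4 in ref6C, 11 in the double mutant and 12 in the triple mutant. In the same mutants 1, 5, 2 and 1 were called higher. Of all tested genes 18.5, 20.4, 34.8 and 34.4% were called lower in these mutants and 16.2, 18.4, 33.7 and 32% higher. The median log2 fold changes were -0.18, 0.12, -0.36 and -0.40. LOX3, a lipoxygenase gene, went from 47.9 ± 3.4 CPM in WT to 23.4 ± 0.32 in the double mutant (-1.04 ± 0.05, adjusted p = 1.16e-16) and 22.5 ± 0.96 in the triple mutant. JAR1, whose product makes the active jasmonoyl-isoleucine, went from 137 ± 4 CPM to 73.3 ± 1.4 in elf6-3ref6C (-0.90 ± 0.03, adjusted p = 3.91e-20). OPR3, the reductase without which stamens stay short, went from 81.8 ± 0.61 CPM to 53.4 ± 1.6 (-0.62 ± 0.04, adjusted p = 1.14e-14). AOC1, an allene oxide cyclase gene, fell from the double to the triple mutant, from 3.93 ± 0.16 to 1.72 ± 0.15 CPM (-1.18 ± 0.12, adjusted p = 2.68e-08). Its relatives AOC2 and AOC3 stood higher in the double mutant, at 17.9 and 16.9 CPM, than in WT, at 11.4 and 10.5 CPM. DAD1, the phospholipase that supplies jasmonate in stamens, was too low to test, at 0.0335 to 0.21 CPM.

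The list of 14 genes for jasmonate perception and repression held COI1 and NINJA beside the JAZ repressor genes, which jasmonate itself induces. Of the 14, 8 were called lower in ref6-3, 7 in ref6C, 11 in the double mutant and 11 in the triple mutant. In the same mutants 0, 2, 2 and 1 were called higher, with medians of -0.27, -0.10, -0.66 and -0.74 on the log2 scale. Of all tested genes 18.5, 20.4, 34.8 and 34.4% were called lower and 16.2, 18.4, 33.7 and 32% higher. NINJA measured 94.4 CPM in WT and 106 in the double mutant, and COI1 42.8 and 42.9 CPM. JAZ9 went from 271 ± 5.5 CPM in WT to 137 ± 2.7 in the double mutant (-0.98 ± 0.03, adjusted p = 2.66e-21) and 113 ± 3.2 in the triple mutant (-1.26 ± 0.03, adjusted p = 2.74e-23). JAZ1 went from 39.7 ± 1.6 to 22.7 ± 1.1 and 17.1 ± 1.2 CPM in these genotypes. Of the 7 bHLH genes 3, 5 and 4 were called lower in ref6C, the double and the triple mutant, and 2 in ref6-3 (1 without WT replicate 2, ref6-3 replicate 2 or ref6-3 replicate 3), against 20.4, 34.8, 34.4 and 18.5% of all tested genes. MYC2, the activator of TPS11 and TPS21, stayed at 59.3 to 64.9 CPM and was not called against WT in any mutant. MYC4, its close relative, fell from 18.1 ± 0.65 CPM to 8.79 ± 0.59 in ref6C (-1.04 ± 0.06, adjusted p = 2.55e-13) and stood at 8.01 to 9.43 CPM in the other mutants, where it was also called lower.

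Genes of anther opening and flavonol synthesis, processes in which MYB21 and MYB24 also act, did not all follow the 2 factors. Of the 5 tested genes of anther opening, 4 were called lower in ref6-3, 1 in ref6C, 5 in the double mutant and 5 in the triple mutant, against 18.5, 20.4, 34.8 and 34.4% of all tested genes; ADPG2 had too few reads to be tested. ADPG1, a polygalacturonase gene that acts when anthers and fruits open, measured 1.79 ± 0.13 CPM in WT, 1.35 ± 0.14 in ref6C, 1.02 ± 0.24 in the triple mutant, 0.729 ± 0.023 in the double mutant and 0.367 ± 0.14 in ref6-3. It fell in ref6-3 against WT (-2.27 ± 0.24, adjusted p = 1.91e-08) and in the double mutant against ref6C (-0.89 ± 0.22, adjusted p = 0.00111), and was not called in ref6C against WT (-0.40 ± 0.19, adjusted p = 0.0908). NST1 and NST2, regulators of the wall thickening that anther opening needs, fell in ref6-3 (-0.67 ± 0.11, adjusted p = 2.15e-05, and -1.08 ± 0.18, adjusted p = 3.19e-05) and were not called in ref6C. MYB26, which acts before NST1 and NST2, was the gene called in ref6C (-0.16 ± 0.06, adjusted p = 0.0481), a call lost when any of several libraries was left out, ref6C replicate 3 among them. QRT2, another polygalacturonase gene, rose in ref6-3 (0.37 ± 0.12, adjusted p = 0.0181; not called without WT replicate 2 or ref6-3 replicate 2) and fell in the triple mutant (-0.78 ± 0.14, adjusted p = 1.46e-05). The F-box gene DAF1 had stood in this list and was called lower in all 4 mutants; it was taken out after its values were seen, because RefSeq names it for its activation by DUO1, a factor of the male germline, and gives it no role in anther opening.

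The 8 flavonol genes gave another order than MYB21 and MYB24, although part of them fell with the 2 factors. Against WT, 4 were called lower in ref6-3 and 6 in the triple mutant, and none higher in either. Of all tested genes 18.5 and 34.4% were called lower there and 16.2 and 32% higher. None was called higher and 8 were called lower in elf6-3ref6C against WT, where 34.8% of all tested genes were called lower, while 5 were called higher and none lower in ref6C against WT, where 18.4% were called higher. From the double to the triple mutant, where MYB21 and MYB24 fell again, 8 of 8 were called higher, against 8.58% of all tested genes. FLS1, the flavonol synthase gene, measured 331 ± 4 CPM in WT, 368 ± 8.2 in ref6C, 211 ± 9.1 in elf6-3ref6C and 267 ± 4.6 in the triple mutant.

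The genes most like each of the 5 in pattern were found by the Pearson correlation of log2 CPM over the 15 libraries, which share 5 genotypes and so few independent steps; these are descriptions without a test. For MYB21 they were AT2G38240 (r = 0.970), of the 2-oxoglutarate-dependent oxygenase superfamily, MYB24 (0.962) and AT5G54940 (0.950). For MYB24 they were the transposable element gene AT5G24915 (0.980), MYB21 (0.962) and AT5G40348 on its opposite strand (0.960). For MYB108 they were AT3G05610, of the pectin methylesterase inhibitor superfamily (0.944), AT5G18630 (0.940) and AT5G43190 (0.938). For TPS11 they were the transporter gene ABCC14 (0.986), GASA4 (0.984), a gibberellin-regulated gene, and ASG8 (0.982). For TPS21 they were AT5G23240 (0.962) and the protein kinase genes AT1G76370 (0.954) and AT3G20530 (0.952). Likeness in pattern was not likeness in size: AT2G38240 went from 1.04 CPM in WT to 0.851 in ref6C and 0.0115 in ref6-3, while AT5G54940 went from 60.6 to 42.8 CPM between WT and ref6-3.

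Between the 5 genes, MYB21 and MYB24 were the pair most alike, and no other pair exceeded the r of 0.774 between MYB108 and TPS21. The r of MYB21 with MYB24 includes the ref6-3 libraries, whose low values led to the choice of both genes, so nothing is read from it. MYB108 correlated at 0.664 with MYB21 and at 0.759 with MYB24, and TPS21 at 0.669 and 0.720. TPS11 had negative values with all 4, from -0.133 with MYB21 to -0.572 with MYB108. GASA4, one of the genes most like TPS11, measured 325 ± 6.0 CPM in WT, 277 ± 10 in ref6-3, 438 ± 4.9 in ref6C, 502 ± 18 in the double mutant and 637 ± 18 in the triple mutant, the same order of genotypes as TPS11.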

How the data were processed

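Counts per gene and library, FPKM values and log2 fold changes with p-values and adjusted p-values came from a table deposited by the authors; FPKM is attributed to RSEM per the file headers. STAR, RSEM 1.2.22, DESeq2 and TAIR10 are named in the submitters' processing notes, without role or settings; none of the sources used here gives how strand was treated. The counts were whole numbers, tested as deposited. Groups come from the sample titles. Testing used edgeR 4.0.16 in R 4.3.3 (TMM, filterByExpr by genotype, quasi-likelihood F-test, 15 libraries in 1 fit, Benjamini-Hochberg over 22411 genes); FPKM served only to compare genes. The script was tested on simulated data. Intervals cover 95%. The 5 genes, the 15 gene lists and the tests were chosen with earlier results of these data known. DAF1 was taken out of the list for anther opening after its values were seen. Named genes were the 5, their annotated neighbours, the 3 most correlated genes each, the next genes in the ref6-3 ranking, all list genes from lists under 8 genes, and up to 4 called genes by adjusted p from longer lists; AT1G70080, CYP76C3 and genes without a call are given for their values. Replicates differed by 1.39 to 2.74 times Poisson noise, so each library counted once. Same-numbered libraries did not deviate together (correlations -0.107 to 0.101). Coordinates are from RefSeq's TAIR10.1. Alternatives were size factors, DESeq2 1.42.0, 2 filters, 2-genotype fits, a replicate block and leaving out each library.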

Additional observations from a re-analysis of the deposited data

How the results depend on the processing

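Across 21 alternatives, 15 of which left out 1 library each, every tested log2 fold change of the 5 genes kept its direction; MYB108 in ref6C against ref6-3, near 0 and not tested, ran from -0.12 to 0.10. The number of the 5 genes called stayed at 4 lower and 1 higher in ref6C, elf6-3ref6C and the triple mutant against WT, and at 2 lower and 1 higher in the triple against the double mutant. In elf6-3ref6C against ref6C it was 2 to 3 lower, TPS21 being the gene lost. TPS21 could not be fitted in the triple against the double mutant with only those genotypes, since it did not pass the filter. Genes called ranged from 6830 to 8816 in ref6C against WT (main value 8705) and from 3148 to 4686 in the triple against the double mutant (main value 4483). TPS11 over MYB21 in WT moved from 3.23 by FPKM to 7.44 by counts per kilobase of annotated exons. Counts of list genes moved by over 1.5 times in 167 of 4116 comparisons with an alternative.

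Replicate numbers are shared between genotypes but do not pair the libraries: with the replicate number as a block, 8485 genes were called in ref6C against WT, MYB21 changed by -1.36 and MYB24 by -1.80, and no call of the 5 genes changed. Depth limits MYB21, MYB24 and TPS21 in the lowest genotypes, where 5 to 22 reads of the MYB genes remained.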
